A study of Arabidopsis thaliana with 4 samples.

Results

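AT3G25810, a monoterpene synthase gene, and AT5G44630, the sesquiterpene synthase gene TPS11, are 2 genes of the terpene scent of Arabidopsis thaliana flowers. Both were followed through a comparison of inflorescences of the apetala1 mutant with wild-type inflorescences. Each was found by its single long-oligonucleotide probe, which the platform annotation assigns to that locus alone. They are 2 of 25415 features tested, of which 5265 carry the name of 1 gene. The pair was chosen with their log2 ratios in this same comparison known, and AT3G25810 was selected on its large ratio, so the values of both are given as a description, with no test.

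Total RNA of apetala1 inflorescences and of wild-type inflorescences was hybridised together on each of 4 two-colour arrays, sets 1 to 4. Channel 1 held the apetala1 RNA on sets 1 and 3 and the wild-type RNA on sets 2 and 4, and the other RNA was in channel 2. The labels used here give no allele, ecotype, plant age or pooling scheme, nor whether the sets are separate plants or repeats of the same extracts, so each SD and p-value reflects the spread of these sets alone, which may be technical. The arrays held 26474 probes, of which 26367 to 26436 had a value per array. With 4 arrays, the precision of every ratio is limited by their number.

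Terpene synthases turn prenyl diphosphates into the carbon skeletons of volatile terpenes. Monoterpene synthases act in the plastid, on geranyl diphosphate supplied by the methylerythritol phosphate route, and sesquiterpene synthases act in the cytosol, on farnesyl diphosphate supplied mainly by the mevalonate route. Arabidopsis flowers release a blend of both classes, dominated by sesquiterpenes, from the stigma, nectaries, sepals and other parts. TPS11 makes a mixture of sesquiterpenes and is known from the nectaries and ovules of the flower. APETALA1 is a MADS-box transcription factor that sets floral meristem identity and the formation of sepals and petals, and its mutants replace sepals by leaf-like organs that bear further flowers.

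The quantity throughout is the log2 ratio of the channels of an array, with the sign of sets 2 and 4 turned so that all arrays run in the channel order of sets 1 and 3. The numerator is not given in the sources used here, nor whether sets 2 and 4 had already been turned before deposit. If they had not and channel 1 is the numerator, a positive value means more transcript in apetala1. If channel 2 is, it means more in wild type. Values are therefore described only as positive or negative. In whole inflorescences, fewer cells that express a gene and less of its RNA per cell cannot be told apart.

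With sets 2 and 4 turned, AT3G25810 was positive on every array. Its log2 ratios on sets 1 to 4 were 1.84, 1.64, 1.66 and 3.20. The values of sets 1, 2 and 3 lay close together and that of set 4 far above them. These ratios correspond to 3.59-fold, 3.13-fold, 3.17-fold and 9.16-fold differences between apetala1 and wild type, in a direction that stays unknown. The mean log2 ratio was 2.09 ± 0.74 (SD, n = 4), a 4.25-fold difference. Without set 4 the mean was 1.72 ± 0.11 (SD, n = 3).

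TPS11 stayed near 0 on every array. Its log2 ratios on sets 1 to 4 were 0.06, -0.17, -0.17 and 0.14. It was positive on sets 1 and 4 and negative on sets 2 and 3, and its array farthest from 0 showed a 1.13-fold difference. The mean log2 ratio was -0.03 ± 0.16 (SD, n = 4), a 1.02-fold difference. The ratios give no signal level, so whether the TPS11 transcript was detected is not known. The log2 ratio of AT3G25810 exceeded that of TPS11 by 1.78, 1.81, 1.83 and 3.06 on sets 1 to 4, on average by 2.12 ± 0.62 (SD, n = 4).

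**Figure D1:**
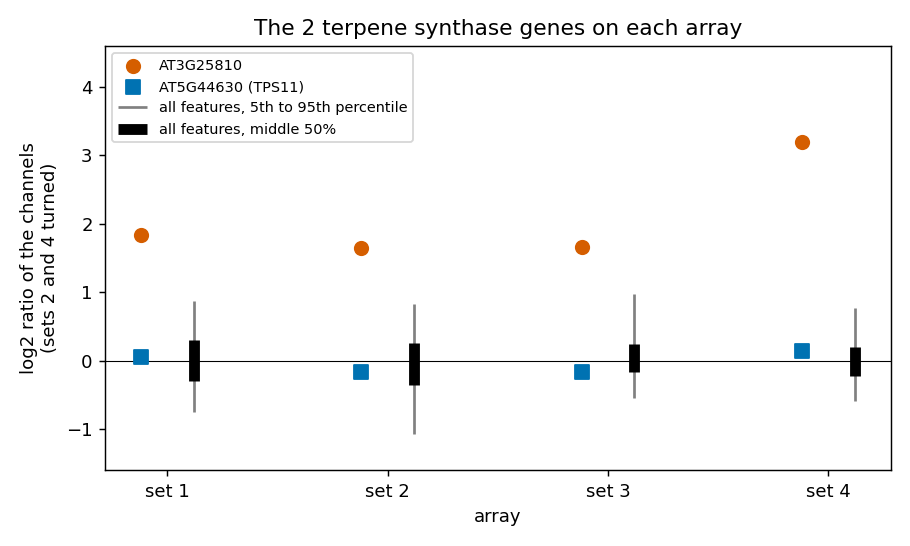
Log2 ratio of AT3G25810 (circles) and AT5G44630, TPS11 (squares), on each of the 4 arrays, with the sign of sets 2 and 4 turned. Beside them, thick bars span the middle 50% of all features on that array and thin lines all but the outer 5% at each end; AT3G25810 lies above the thin line on each array, and TPS11 between -0.17 and 0.14.

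The size of each ratio was set beside the other features of the same array. AT3G25810 was above 99.3%, 99.0%, 97.7% and 99.9% of the features with a value on sets 1 to 4. The upper 5% of all features began at 0.88, 0.83, 0.97 and 0.77 on those arrays, and the SD over features was 0.54, 0.69, 0.57 and 0.51. TPS11 lay inside the middle 50% of the features on sets 1, 2 and 4 and at its lower edge, -0.17, on set 3. By its mean, AT3G25810 ranked 27 of all 25415 features and 6 of the 5265 named genes. The genes just above it were AT5G47350, AT3G55870 and AT4G15750, at means of 2.41, 2.34 and 2.30, and those just below were AT4G12530, AT1G57980 and AT4G19380, at 2.02, 2.02 and 1.96. These gaps were smaller than the SD of AT3G25810 over the arrays, so its place among these neighbours is not resolved. For TPS11, 11.1% of all features had a mean closer to 0, and 15.4% had a smaller SD over the arrays. For AT3G25810, 90.7% of the features had a smaller SD.

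The signs rest on the channel order of the labels and on sets 2 and 4 not having been turned before deposit. As deposited, AT3G25810 had 1.84 and 1.66 on sets 1 and 3, where channel 1 held apetala1, and -1.64 and -3.20 on sets 2 and 4, where it held wild type, so that its sign changed with the channel order. With no array turned its mean was -0.33. Within channel orders the turned means were 1.75 for sets 1 and 3 and 2.42 for sets 2 and 4, each over 2 arrays. For TPS11 the corresponding means were -0.05 and -0.02. Neither gene had a value at the limit of plus or minus 6.64 where the deposited ratios stop. A sign that follows the channel order, as for AT3G25810, was common to many features. Of the 24398 features with 4 values, 27.3% had the same sign on all arrays after turning, and 0.299%, or 73 features, were at least 2-fold to the positive side on all 4, among them AT3G25810. Of the 25415 features tested, 4148 had an unadjusted limma p under 0.05 with sets 2 and 4 turned. With no array turned there were 852. Which orientation the deposit used was not tested.

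Other terpene synthases were taken from a list of 33 loci written from memory. A match by name found 14 of these as terpene synthases, and none of the 14 had a probe of its own. The match also missed AT3G25810 and TPS11, so a miss does not place a gene outside the family. For the genes below the family membership rests on the list. A probe of their own was present for 11 of the 33, AT3G25810 and TPS11 included. Of the other 9, 5 had a positive and 4 a negative mean, and 0 passed an adjusted p of 0.05 in limma, against 0.220% of all features. At an unadjusted limma p under 0.05 there were 2 of the 9, against 16.3% of all features. The same sign on all arrays was seen in 2 of the 9, a share close to the 27.3% of all features. Their median log2 ratio was 0.08, beside -0.02 for all features, and their means ran from -1.14 to 0.73. AT3G25810 lay above each of them on sets 1, 2 and 4, and below AT3G32030 on set 3.

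AT1G33750 was the other gene of the list with a mean more than 2-fold from equality, on the opposite side from AT3G25810. Its log2 ratio was -0.45, -0.99, -2.14 and -0.98 on sets 1 to 4. It was negative on every array and lowest on set 3. The mean was -1.14 ± 0.71 (SD, n = 4; limma adjusted p = 0.168), which did not pass. AT3G29190 was positive on every array, at 0.58, 0.40, 0.22 and 0.11, with a mean of 0.33 ± 0.21 (SD, n = 4; limma adjusted p = 0.292), which did not pass either.

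AT3G32030 owed its mean of 0.73 ± 1.27 (SD, n = 4; limma adjusted p = 0.486) to one array. It had -0.14, 0.58, 2.56 and -0.10 on sets 1 to 4, high on set 3 and on both sides of 0 elsewhere. Both of its probes were highest on set 3, at 3.13 and 1.99. The remaining 6 genes had arrays on both sides of 0. AT3G29110 had a mean of 0.14 ± 0.77, AT2G37140 of -0.10 ± 0.92, AT3G29410 of -0.11 ± 0.60 and AT1G66020 of -0.19 ± 0.60 (SD, n = 4 each). AT5G48110 and AT1G31950 varied less over the arrays, at 0.11 ± 0.10 and 0.08 ± 0.23 (SD, n = 4 each), beside an SD of 0.16 for TPS11.

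**Figure D2:**
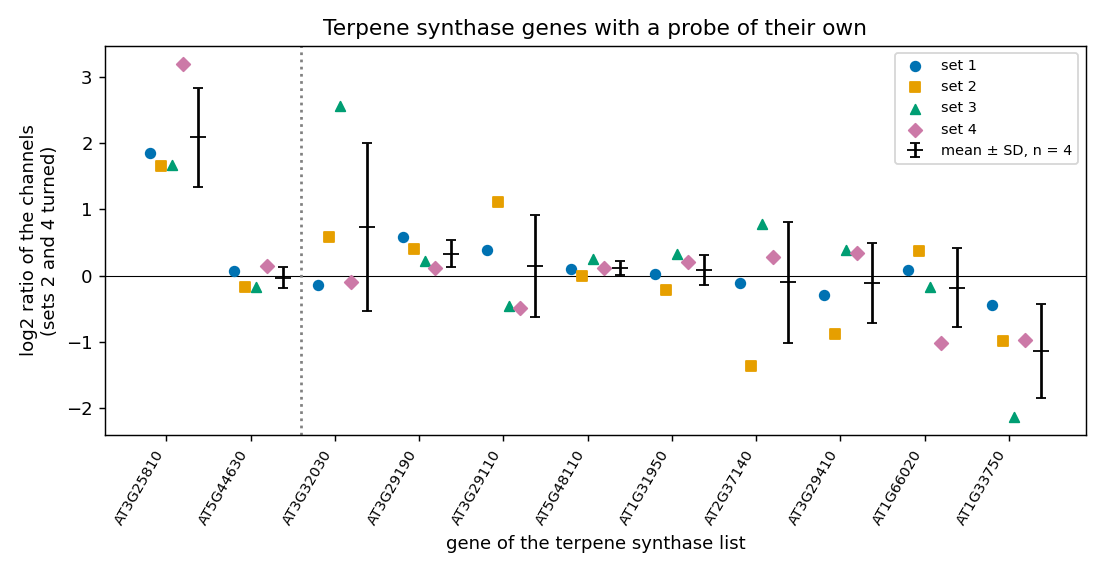
Log2 ratio on each array (symbols by set, sets 2 and 4 turned) and mean ± SD over the 4 arrays for the 11 genes of the terpene synthase list with a probe of their own. AT3G25810 and AT5G44630 (TPS11) stand left of the dotted line; right of it the other 9 genes run by their mean from AT3G32030, at 0.73, to AT1G33750, at -1.14.

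A further 5 features were probes assigned to several loci that are all on the terpene synthase list, and 0 of these passed in limma, against 0.220% of all features. An unadjusted p under 0.05 was seen in 1 of the 5, against 16.3% of all features. Probe A010491_01 is assigned to 2 genes that both lie within 5 annotated genes of AT3G25810. It had 0.61, -0.43, 0.60 and -0.02 on sets 1 to 4, with a mean of 0.19 ± 0.51 (SD, n = 4; limma adjusted p = 0.687), on both sides of 0. Probe A013849_01, assigned to 2 other loci of the list, was negative on every array, at -0.89, -0.70, -0.97 and -0.55. Its mean was -0.78 ± 0.19 (SD, n = 4; limma adjusted p = 0.0901). Genes of this family share sequence, and which transcripts each probe binds was not tested.

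The supply of terpene precursors and the steps after the synthases were hardly covered. Of 91 loci on the 7 terpene lists, 13 had a probe of their own, and 4 lists had none: the plastid methylerythritol phosphate route, the oxidosqualene cyclases that form triterpenes, the cytochrome P450 enzymes that modify terpenes, and the regulators of flower terpenes. In the mevalonate list, AT1G31910 had a mean of 0.02 ± 0.38 (SD, n = 4; limma adjusted p = 0.968). In the list of prenyl diphosphate synthases, which make the substrates of terpene synthases, AT3G14510 had 0.15 ± 0.22 (SD, n = 4; limma adjusted p = 0.610). A pair of probes shared by loci of that list had means of 0.09 and -0.22. Over the 11 measured genes of all lists other than AT3G25810 and TPS11, 7 were positive and 4 negative, where 47.0% of all features were positive. Of these 11, 0 passed in limma, against 0.220% of all features, and 2 had an unadjusted p under 0.05, against 16.3%. Their median was 0.08, beside -0.02.

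Of the 10 chromosomal neighbours of AT3G25810, 5 on each side in the gene order of assembly TAIR10.1, 2 had a probe of their own. AT3G25805, the adjoining gene, had -0.25, 0.70, 0.17 and 0.22 on sets 1 to 4, with a mean of 0.21 ± 0.39 (SD, n = 4; limma adjusted p = 0.588). AT3G25840 had 0.04 ± 0.13 (SD, n = 4; limma adjusted p = 0.893). Neither passed, and both had arrays on each side of 0. For TPS11, 0 of the 10 neighbouring genes had such a probe. One of them, the adjoining cytochrome P450 gene CYP706A3, is on the list of terpene-modifying enzymes.

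Genes with the most similar pattern were sought by the root mean square difference of the log2 ratios over the 4 arrays, which turning arrays does not alter. Nearest to AT3G25810 among 5050 other named genes was AT4G12530, at a difference of 0.39. It was followed by SWEET9 (AT2G39060), AT3G55870, AT4G15660 and AT1G57980 at 0.77, 0.77, 0.77 and 0.78, where the median over all these genes was 2.23. SWEET9 is a sugar transporter of the nectary needed for nectar secretion. AT4G12530 had 1.94, 1.21, 2.14 and 2.77 on sets 1 to 4, so that it too was highest on set 4. The list depended on the arrays and on the measure. Without set 1, 2 or 3, 4, 3 and 4 of the 5 genes remained among the nearest 5. Without set 4, 0 of them remained, and the nearest were then AT1G20180, AT2G25450, AT5G57760, AT5G45950 and UGT85A5, and SWEET9 was at place 35. By the mean absolute difference over all 4 arrays, 2 of the 5 remained. These repeats were added after the values had been seen.

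Nearest to TPS11 were AT3G02450, AT1G29110, AT1G56345, AT1G17850 and AT5G57830, at differences of 0.04 to 0.06, where the median over all named genes was 0.35. Their means lay between -0.05 and -0.01, and each had arrays on both sides of 0. Over all features, 11.1% had a mean closer to 0 than that of TPS11, and 15.4% had a smaller SD.

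**Figure D3:**
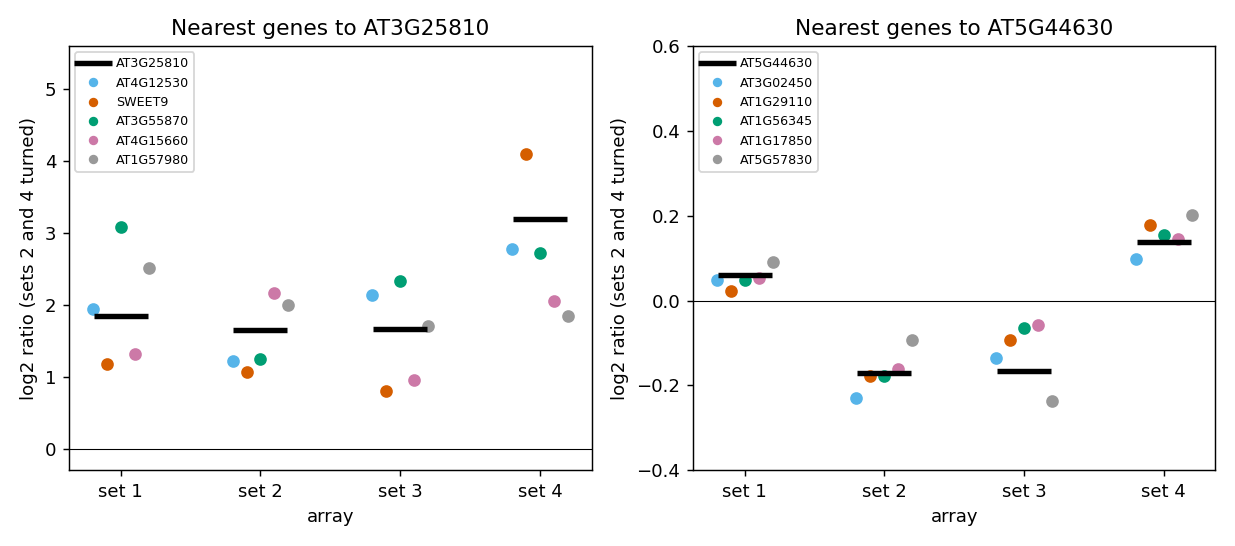
Log2 ratio on each array (sets 2 and 4 turned) of AT3G25810 (left, black bars) and AT5G44630, TPS11 (right, black bars), each with the 5 named genes of smallest root mean square difference (coloured points). On set 4 SWEET9 reached 4.09 and AT3G25810 3.20; the 5 genes around TPS11 lie between -0.24 and 0.20 on every array (the panels have different scales).

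Markers of floral tissues that could carry these transcripts were listed as well, since ratios give no level by which the tissue itself could be checked. Of 16 marker genes, 6 had a probe of their own, 3 positive and 3 negative, and 0 passed in limma, against 0.220% of all features. An unadjusted p under 0.05 was seen in 2 of the 6, against 16.3% of all features, and the same 2 genes had the same sign on every array, against 27.3%. The median was -0.07, beside -0.02 for all features. SWEET9, the measured gene of 3 nectary markers, had 1.17, 1.06, 0.80 and 4.09 on sets 1 to 4. It was positive on every array and, like AT3G25810, highest on set 4. Its mean was 1.78 ± 1.55 (SD, n = 4; limma adjusted p = 0.231), and 1.01 without set 4. AT3G12000, listed for stigma and transmitting tissue, was negative on every array, at -1.14, -2.16, -0.56 and -0.99, with a mean of -1.21 ± 0.68 (SD, n = 4; limma adjusted p = 0.144). With no array turned, the means of SWEET9 and AT3G12000 were -0.80 and 0.36. The ovule gene INO, whose 3 probes disagreed in sign, had 0.17 ± 0.32, the stem cell signal CLV3 0.17 ± 0.50, and the tapetum genes ATA20 and SHT -0.30 ± 0.45 and -0.71 ± 0.88 (SD, n = 4 each), each with arrays on both sides of 0. The lists for petal and stamen, sepal and petal, and carpel identity, with AP1 itself, had no gene with a probe of its own. On every array SWEET9 lay on the same side of 0 as AT3G25810 and AT3G12000 on the opposite side, where TPS11 lay close to 0. The part of nectary, stigma or other tissue content in the ratio of AT3G25810 or TPS11 was not tested.

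The mean ratios of both genes were recomputed under other processing. AT3G25810 stayed between 1.72 and 2.23 wherever sets 2 and 4 were turned. With no array turned it was -0.33, whether or not values at the deposited limits were kept. TPS11 stayed within 0.10 of 0 throughout.

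**Figure D4:**
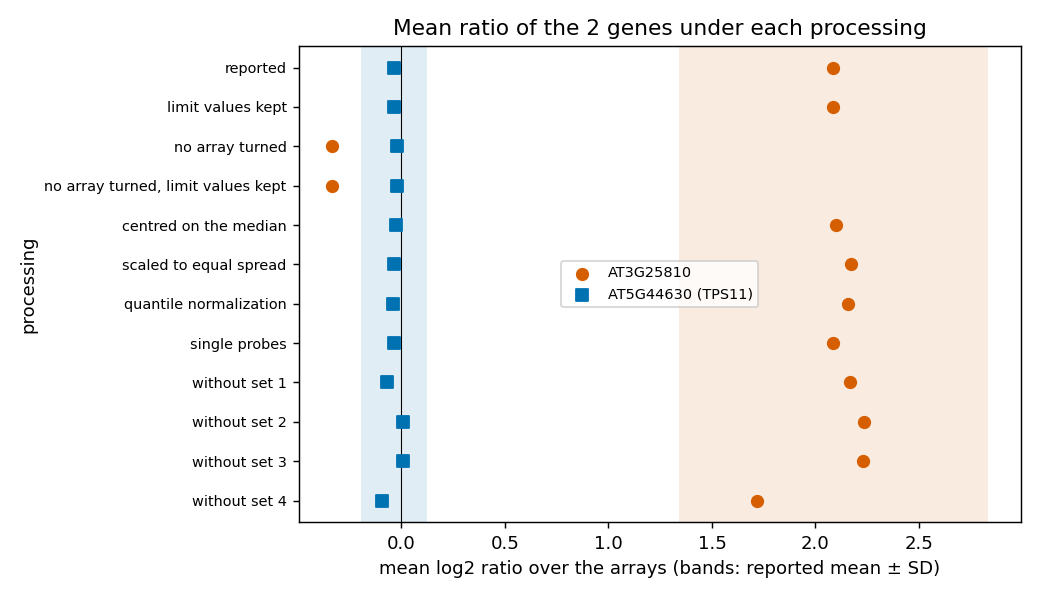
Mean log2 ratio over the arrays of AT3G25810 (circles) and AT5G44630, TPS11 (squares), as reported and under each other processing, with bands for the reported mean ± SD. Turning no array moves AT3G25810 to -0.33; leaving out set 4 gives 1.72.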

How the data were processed

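The deposited table holds, for each two-colour array, log2 ratios between its channels. Per the labels, the authors normalized them by a published method. The numerator, dyes, background correction and software used are each not given in the sources used here. A base of 2 follows from the values, which stop at plus and minus the log2 of 100. The deposited medians over probes were -0.00, 0.06, 0.04 and 0.03 on sets 1 to 4, and the ratios were not centred further, so scale is known while numerator and centring are not. The number of value columns of no sample was 0.

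Empty spots and control rows were left out, and so were the 2765 limit values of probes. Sets 2 and 4 were turned by the channel order of the labels. The platform annotation gave 1 gene for 5784 of 26474 probes (5756 matched a locus), several for 7497 and none listed for 13193. Where a gene had several probes, their mean was taken on each array. The mean ratio of each feature measured on 3 or 4 arrays was tested against 0 in limma 3.58.1 (lmFit, then eBayes; R 4.3.3), two-sided, with Benjamini-Hochberg adjustment over all 25415 features, and those with an adjusted p under 0.05 are called.

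The 2 genes, the orientation, the handling of limit values and the lists were chosen with earlier results of these data known. Named are all measured genes of the terpene and marker lists, the 5 genes nearest to each of the pair by root mean square difference, measured genes among the 5 neighbours on each side, and the 3 genes ranked next above and below AT3G25810. Genes nearest without set 4 were named after their values were seen, as were 2 shared probes. Probe and protein sequences were not used here.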

Additional observations from a re-analysis of the deposited data

Results flagged for a closer look

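Of 34 of the genes and probes named above, 2 had 1 array whose gap to the nearest other array exceeded the critical share of the whole range (Dixon's ratio). About 1 in 20 unselected genes would do so by chance, and 2 of 34 is close to that rate. Some of the 34 were picked by their ratios on these same arrays, so that rate is only a guide. These values are given as a description. For AT3G25810 this was set 4, at a log2 ratio of 3.20 against the 1.64 to 1.84 of the other arrays. For SWEET9 (AT2G39060) it was also set 4, at 4.09 against 0.80 to 1.17. What sets these values on set 4 apart was not tested.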

How the results depend on the processing

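As deposited, the sign of AT3G25810 changed with the channel order. Its log2 ratio, 2.09 as reported, was -0.33 with no array turned and also -0.33 with no array turned and limit values kept. Limit values kept, centring, scaling, quantile normalization and single probes moved it by less than its SD, and leaving out 1 array gave 1.72 to 2.23. TPS11 moved by less than its SD under each of these, at -0.09 to 0.01 without 1 array. The median of the terpene lists ranged from 0.03 to 0.15 without 1 array. The count of called genes on these lists was 0 in each fit. The count of 56 called features was 1 with a channel order term, 1 with limit values kept, 152 with no array turned and limit values kept, 0 with no array turned, 18 with quantile normalization, 109 with robust eBayes, 140 with a value on all 4 arrays and 1 at an adjusted p of 0.01; it was 0 to 38 without 1 array (0, 1, 30 and 38 without sets 1 to 4). The calls split into 50 positive and 6 negative, against 27 and 11 without set 4. With values on all 4 arrays, turning no array alters only the signs of sets 2 and 4. With no array turned, 16 of 31 other named genes changed the sign of their mean. Among them AT5G47350 had -0.19 in place of 2.41 (and -0.19 with limit values kept as well), SWEET9 -0.80 in place of 1.78, AT3G12000 0.36 in place of -1.21, AT4G15660 -0.49 in place of 1.62 and AT4G15750 -0.49 in place of 2.30. Of the other named genes 3 were called, AT1G57980, AT5G47350 and AT4G19380. Each lost the call with limit values kept, with no array turned, and without set 1, 2 or 4. AT5G47350 also lost it without set 3 (limma adjusted p = 0.0554). Quantile normalization removed the calls of AT5G47350 and AT1G57980 (limma adjusted p = 0.0879 and 0.0746). With arrays scaled to equal spread, AT4G19380 lost its call (limma adjusted p = 0.0834) and AT4G15750 passed (limma adjusted p = 0.0496). For the changes in counts and calls, the cause was not tested. Each log2 ratio already pairs apetala1 with wild type within an array, so the reported fit is paired by array. Its p-values rest on the spread of the 4 arrays, which may be technical. No replicate number is shared between groups, since the 4 arrays form one group, so no replicate block was fitted.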
